A study of Drosophila melanogaster with 8 samples.

Results

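Expression of 10 genes for secreted effectors of the Toll immune pathway was examined in the fat body of adult Drosophila melanogaster females. The genes are 7 Bomanins (IM1, IM2, IM23, CG15065, CG18107, CG15068 and CG16836), both Daisho genes (IM4 and IM14) and Bombardier (CG18067). They were chosen by name, as the rows carrying these older symbols, with earlier results of these data known. Of them, 10 of 10 were found among the 17411 genes of the deposited tables. All 10 had enough counts to be tested, as did 9846 genes in all. The newer symbols are BomS1 for IM1, BomS2 for IM2, BomBc1 for IM23, BomS5 for CG15065, BomS4 for CG18107, BomS6 for CG15068, BomT2 for CG16836, Dso1 for IM4, Dso2 for IM14 and Bbd for CG18067.

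The tested flies were yolk-Gal4>9G8RNAi females (4 libraries, called 9G8 RNAi 1 to 4), and the controls were yolk-Gal4/w1118 females (4 libraries, called control 1 to 4). Both genotypes carried the yolk-Gal4 driver, which acts in adult female fat body, and both were sampled as adults of 1 week. The tissue was body cuticle with the fat body left on it, so epidermis, muscle, oenocytes and adhering blood cells could contribute RNA. The controls carried no hairpin, so effects of the hairpin, its insertion and its genetic background cannot be told apart here. No infection is named in the labels.

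The Toll pathway is one of the main humoral immune pathways of insects. Microbial sensors start a cascade of serine proteases that cuts the cytokine Spätzle, which then binds the receptor Toll. Signalling through MyD88, Tube and Pelle leads to loss of the inhibitor Cactus and lets the NF-kappaB factors Dif and Dorsal enter the nucleus. The fat body then secretes peptides into the hemolymph. Bomanins are such peptides and share a short conserved motif. Short Bomanins are little more than this motif, tailed Bomanins add a C-terminal tail, and bicipital Bomanins join a pair of motifs by a linker. Flies that lack the main Bomanin gene cluster succumb to fungi and to Gram-positive bacteria. Daisho peptides act against filamentous fungi. Bombardier is a secreted protein needed for short Bomanins to accumulate in the hemolymph.

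The 10 genes were annotated as protein coding with 2 exons each, and their encoded precursors ran from 40 residues for CG15065 and CG15068 to 245 residues for CG18067. The other precursors had 42 residues for IM4, 45 for each of IM1, IM2 and CG18107, 46 for IM14, 76 for CG16836 and 117 for IM23. All lay on chromosome arm 2R of the BDGP6 assembly. The 7 Bomanins fell within 7926 bp, from position 18382704 to 18390629, which also held the Bomanins IM3 and CG15067. The Daisho genes lay 1070 bp apart on opposite strands, between 20868496 and 20870678, and CG18067 spanned 20534245 to 20535835 on the plus strand.

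Libraries held 25396063 to 36181492 counts in 9G8 RNAi and 27946556 to 34750635 counts in controls. The 10 genes received between 464 counts (IM14 in 9G8 RNAi 2) and 271889 counts (IM1 in control 2) per library, so the spread between libraries, rather than counting error, set their precision. The targeted gene, x16 (9G8, an SR protein that takes part in splicing), had 199, 34.7, 103 and 49.5 normalized counts (CPM, the counts of a gene scaled to library size) in 9G8 RNAi, against 60.4, 65.6, 326 and 145 CPM in controls. Its groups overlapped, and the log2 fold change was -0.63 (standard error, SE, 0.63; adjusted p = 0.862, edgeR's quasi-likelihood test with Benjamini-Hochberg adjustment; exact two-sided permutation p = 0.486). Libraries are therefore described by their labelled genotype, since the transcript of the target does not separate them. Germline markers summed to 274, 119, 112 and 58.9 CPM in 9G8 RNAi and 8.10, 27.2, 331 and 210 CPM in controls. Control 3, 9G8 RNAi 1 and control 4 were highest both in these markers and in x16. The part of germline RNA in the x16 values was not tested. The x16 span overlaps that of nop5 on the same strand by 1991 bp, so some of its reads could be shared. Fat body markers summed to 15364.5 to 26716 CPM in 9G8 RNAi and 9134 to 15985 CPM in controls. Of 9 tested, 1 was higher (Yp2) and 1 was lower (Lsp2). Gut markers summed to 11690 to 34231 CPM in 9G8 RNAi and 239 to 19847 CPM in controls, with 4 of 12 higher and 1 lower. Their part in the results was not tested.

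Transcripts of the effector genes were scarcer in 9G8 RNAi. The 10 genes took 0.331%, 0.152%, 0.536% and 0.327% of all counts in the 9G8 RNAi libraries, a mean of 0.337% ± 0.157 (SD, n = 4). In the controls they took 1.03%, 2.99%, 1.12% and 1.69%, a mean of 1.70% ± 0.903 (SD, n = 4). The groups did not overlap. All 10 genes had a negative log2 fold change (9G8 RNAi over control, from edgeR), as had 49.2% of all genes tested. The median over the 10 was -2.81 and that over all genes tested was 0.0098.

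At an adjusted p under 0.05, 4 of the 10 were lower in 9G8 RNAi, where 2.21% of all genes tested were, and 0 were higher, where 0.995% were (3.21% in either direction). The 4 were CG18067, IM4, CG15065 and IM14. Without 9G8 RNAi 1, and likewise without control 2, 2 of the 10 passed (CG18067 and IM4), and without 9G8 RNAi 3, 5 passed. In 9 of the 10, each 9G8 RNAi library was below each control library in CPM, against 5.78% of all genes tested. None had the groups apart the other way, against 2.96%. At an unadjusted p under 0.05, 9 of the 10 were lower, against 7.79% of all genes tested. CG18107 was the exception to both. In bulk tissue, fewer cells of a type and less RNA per cell cannot be told apart. Hemocyte markers, which label the blood cells, had lower summed levels too. The sum was 66.2 to 115 CPM in 9G8 RNAi and 116 to 302 CPM in controls, 3 of 8 were lower (He, Pxn and NimC4), and 0 of 8 were at zero in every library. Their part in the effector values was not tested.

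**Figure D1:**
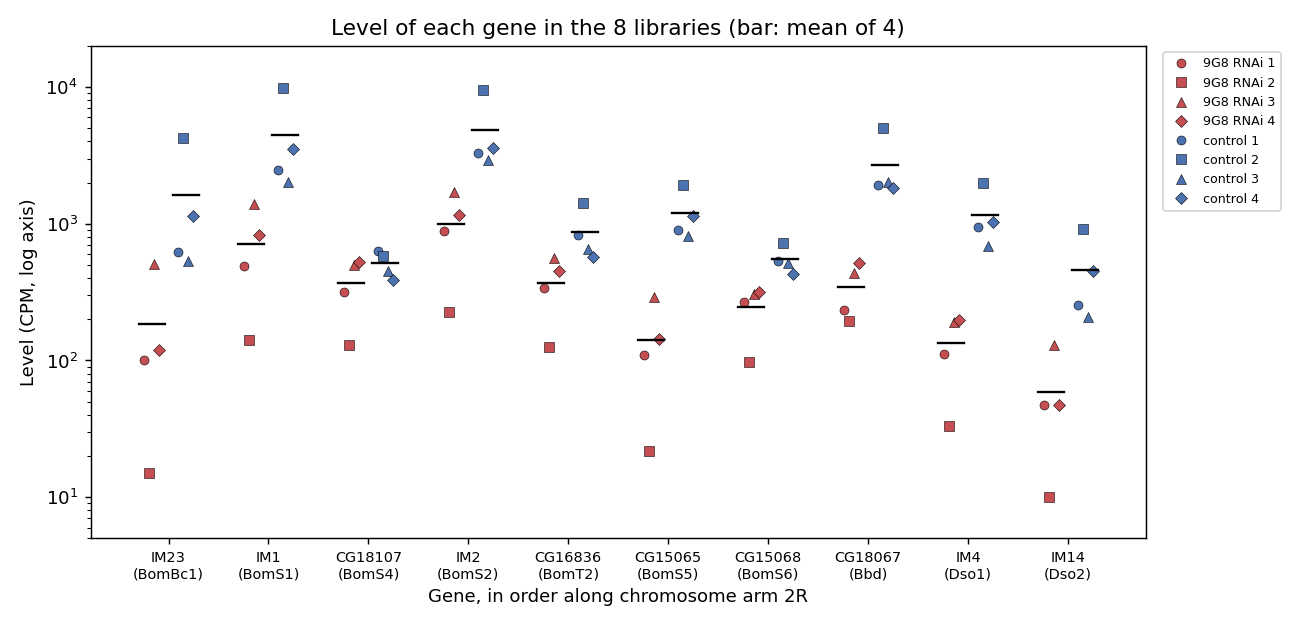
Level of each of the 10 genes in CPM on a log axis, in order along chromosome arm 2R, with one symbol per library, 9G8 RNAi in red left of control in blue, and a bar at the mean of 4 libraries. Symbols of the genotypes are separate in every gene except CG18107, and the lowest symbol of each gene is 9G8 RNAi 2.

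Bombardier had the smallest adjusted p of the 10 genes. CG18067 had 234, 193, 438 and 519 CPM in 9G8 RNAi, against 1938, 5038, 2016 and 1817 CPM in controls. The highest 9G8 RNAi library lay far under the lowest control, and control 2 stood above the other controls. The means were 346 ± 157 CPM in 9G8 RNAi and 2702 ± 1559 CPM in controls (SD, n = 4 each), a log2 fold change of -2.96 (standard error 0.50, adjusted p = 0.00691, edgeR's quasi-likelihood test with Benjamini-Hochberg adjustment). Bombardier was below 0.05 in each of the 8 fits that left out 1 library. It was also on the list of markers of the spermatheca, a sperm-storage organ. The other spermathecal markers summed to 3.95 to 150.3 CPM in 9G8 RNAi and 119 to 359 CPM in controls, and 1 of 3 tested (CG4269) was lower. Their part in the Bombardier value was not tested.

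Both Daisho genes fell. IM4 had 112, 33.3, 192 and 197 CPM in 9G8 RNAi, against 943, 1982, 689 and 1032 CPM in controls. The lowest control was well above the highest 9G8 RNAi library. Its log2 fold change was -3.12 (SE 0.57, adjusted p = 0.0113, edgeR's quasi-likelihood test with Benjamini-Hochberg adjustment), and it stayed below 0.05 in each of the 8 fits without 1 library. IM14 had 47.1, 10.01, 129.5 and 47.1 CPM in 9G8 RNAi, against 253, 917, 209 and 452 CPM in controls. The groups were again apart, with 9G8 RNAi 3 nearest to the controls. Its log2 fold change was -2.97 (SE 0.71, adjusted p = 0.0448, same test). That call was lost with RLE size factors (adjusted p = 0.0539), with TMM factors that leave out the most abundant genes (adjusted p = 0.0502), with a mean CPM of at least 1 (adjusted p = 0.0520), and in 6 of the 8 fits without 1 library, up to an adjusted p of 0.126.

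No difference between the changes of the 2 Daisho genes was detectable. The log2 ratio of IM4 to IM14 counts, which does not depend on library scaling, was 1.25, 1.74, 0.57 and 2.07 in 9G8 RNAi and 1.90, 1.11, 1.72 and 1.19 in controls. The means were 1.40 ± 0.65 in 9G8 RNAi and 1.48 ± 0.39 in controls (SD, n = 4 each). The difference of -0.08 was smaller than the spread within either genotype (exact two-sided permutation p = 0.914, smallest possible 0.0286).

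Among the short Bomanins, CG15065 passed the test. It had 110.4, 21.7, 290.1 and 143 CPM in 9G8 RNAi, against 897, 1920.2, 813 and 1141 CPM in controls. All controls were above all 9G8 RNAi libraries by a wide margin. The means were 141 ± 112 CPM in 9G8 RNAi and 1193 ± 505 CPM in controls (SD, n = 4 each), a log2 fold change of -3.08 (standard error 0.65, adjusted p = 0.0244, edgeR's quasi-likelihood test with Benjamini-Hochberg adjustment). Without 9G8 RNAi 1 the adjusted p was 0.0636, and without control 2 it was 0.0722.

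The short Bomanins IM1 and IM2 had the highest mean levels per annotated exon length of the 10 genes in both genotypes, and they did not pass. IM1 had 494, 142, 1386 and 831 CPM in 9G8 RNAi, against 2489.8, 9852, 2031 and 3499 CPM in controls. Its log2 fold change was -2.65 (SE 0.70, adjusted p = 0.0694, edgeR's quasi-likelihood test with Benjamini-Hochberg adjustment). IM2 had 878, 226, 1709 and 1164 CPM in 9G8 RNAi, against 3282, 9509.9, 2953 and 3589.7 CPM in controls. Its log2 fold change was -2.28 (SE 0.60, adjusted p = 0.0701, same test). The groups of both genes were apart, while within each genotype the levels spread over several fold. DESeq2 called both, with adjusted p = 0.00130 for IM1 and 0.00301 for IM2.

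The bicipital Bomanin IM23 had the most negative log2 fold change of the 10, and it did not pass the test. It had 101, 15.1, 509.8 and 119 CPM in 9G8 RNAi, against 617, 4264, 530.1 and 1139.5 CPM in controls. The genotypes barely separated, since 9G8 RNAi 3 lay just under control 3. The log2 fold change was -3.14 (SE 0.96, adjusted p = 0.122, edgeR's quasi-likelihood test with Benjamini-Hochberg adjustment). Without 9G8 RNAi 3 the log2 fold change was -4.38 and the adjusted p 0.0454. Without control 2 they were -2.03 and 0.384, and CG15065 (-2.75) was then the most negative of the 10.

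The remaining 3 Bomanins differed less, and none of them passed. The short Bomanin CG15068 had 269, 97.0, 309 and 316 CPM in 9G8 RNAi, against 531, 728, 513 and 431 CPM in controls, a log2 fold change of -1.15 (standard error 0.41, adjusted p = 0.195, edgeR's quasi-likelihood test with Benjamini-Hochberg adjustment). The tailed Bomanin CG16836 had 337, 124, 559 and 449 CPM in 9G8 RNAi, against 829.6, 1426, 658 and 573 CPM in controls, a log2 fold change of -1.25 (standard error 0.48, adjusted p = 0.250, same test). The groups of both were apart, and in CG16836 the highest 9G8 RNAi library came close to the lowest control. The short Bomanin CG18107 had 314, 129, 498 and 527 CPM in 9G8 RNAi, against 637, 586, 448 and 386 CPM in controls. Here 9G8 RNAi 3 and 4 were above controls 3 and 4 in CPM, and the log2 fold change was -0.49 (SE 0.43, adjusted p = 0.826, same test). The end of CG18107 overlaps CG15067 on the opposite strand by 88 bp, and the strand setting of the counting is not given in the sources used here, so reads from that stretch cannot be placed.

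Levels were also compared between the genes per exon length, in TPM, in which counts are divided by the annotated exon length of the gene before scaling. The order depends on these lengths, which were 767 bp for IM4 and 223 bp for IM14. The order in 9G8 RNAi was IM2 (mean 2444 TPM), IM1 (1746 TPM), CG18107 (1204 TPM), CG15068 (1188 TPM), CG16836 (889.7 TPM), CG15065 (572 TPM), IM23 (342 TPM), IM14 (234 TPM), CG18067 (216 TPM) and IM4 (156 TPM). The order in controls was IM2 (11372.9 TPM), IM1 (10623 TPM), CG15065 (4846 TPM), IM23 (2951 TPM), CG15068 (2461 TPM), CG16836 (1967 TPM), IM14 (1799 TPM), CG18107 (1609 TPM), CG18067 (1527 TPM) and IM4 (1326 TPM). IM2 and IM1 led the 10 in both genotypes. The groups of CG18107 did not overlap in TPM, unlike in CPM. It had 1204, 793, 1459 and 1359 TPM in 9G8 RNAi, against 1760, 1594, 1559 and 1524 TPM in controls. CG18107 held the third place in 9G8 RNAi and the eighth in controls, and CG15065 the sixth in 9G8 RNAi and the third in controls. Many neighbours in these orders were not separated. In 9G8 RNAi, CG18107 was above CG15068 in 2 of 4 libraries, and IM14 was above CG18067 in 2 of 4. In controls, IM23 was above CG15068 in 2 of 4 libraries, and IM2 was above IM1 in 3 of 4.

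The make-up of the effector transcripts was described by shares, with no test. Of the summed CPM of the 10 genes, CG18107 made up 11.1% ± 2.07 in 9G8 RNAi and 3.40% ± 1.54 in controls (SD, n = 4 each). CG16836 made up 10.96% ± 1.43 in 9G8 RNAi and 5.19% ± 1.39 in controls, and CG15068 made up 7.88% ± 2.12 in 9G8 RNAi and 3.52% ± 1.23 in controls. In the other direction, CG15065 made up 3.53% ± 1.09 in 9G8 RNAi and 7.03% ± 1.21 in controls, and IM4 made up 3.75% ± 0.620 in 9G8 RNAi and 6.69% ± 0.974 in controls. IM2 was the largest part in both, with 27.1% ± 3.19 in 9G8 RNAi and 26.4% ± 0.683 in controls. These shares sum to a fixed total, so a larger share of one gene does not show that its level rose.

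**Figure D2:**
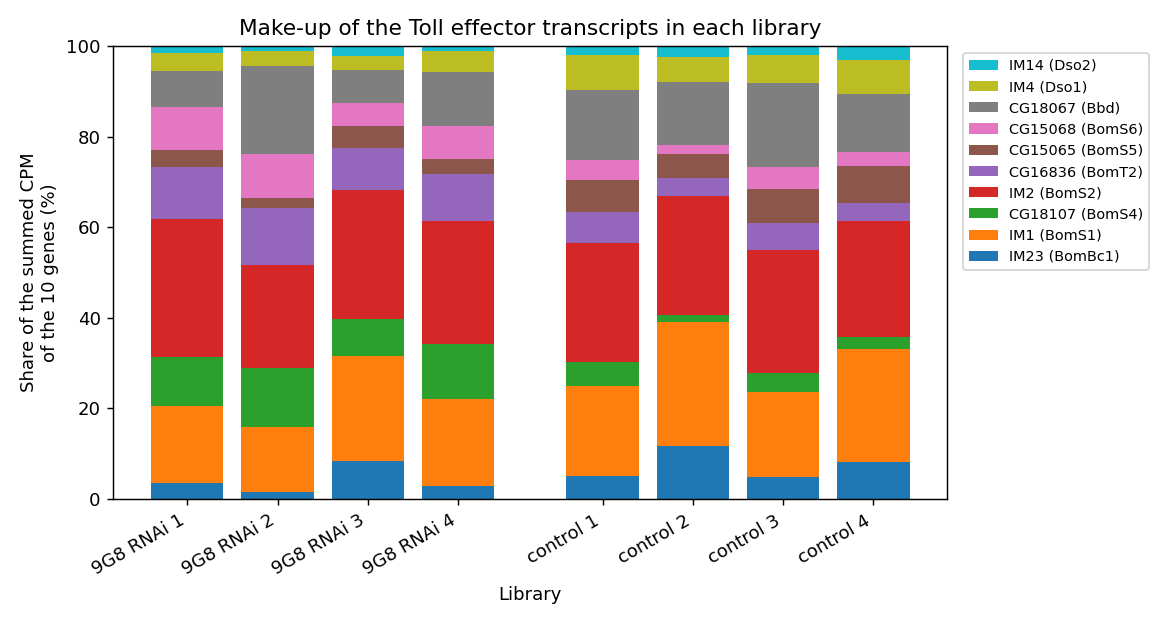
Share of the summed CPM of the 10 genes taken by each gene, in percent, as a stacked bar per library, with 9G8 RNAi libraries left of the controls. The segments of CG18107, CG16836 and CG15068 are taller on average in 9G8 RNAi, where CG18107 averages 11.1% against 3.40% in controls.

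Ratios between the genes within a library were tested for all 45 pairs, a comparison chosen after the values were seen. In 19 pairs the genotypes did not overlap and the exact two-sided permutation p was 0.0286, the smallest that 4 against 4 libraries can give. The pairs share genes, so the 19 are not independent of one another. The share of such pairs among other genes was not computed, so 19 cannot be set against a background. After Benjamini-Hochberg adjustment over the 45 pairs, 0 were under 0.05, and the smallest adjusted p was 0.0677. That value is set by the number of pairs at the smallest possible p, so it adds nothing to the count of 19. The log2 ratio of CG18107 to CG15065 averaged 1.68 in 9G8 RNAi and -1.16 in controls, a difference of 2.84. The adjacent genes CG15065 and CG15068, 110 bp apart, had a log2 ratio of -1.17 in 9G8 RNAi and 1.06 in controls, a difference of -2.22. Both pairs were among the 19. The short Bomanins resemble one another in sequence, and the handling of reads with several matches is not given in the sources used here, so counts could be split between copies.

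Within a genotype, the same libraries were high or low in CPM for most of the genes. The lowest 9G8 RNAi level was in 9G8 RNAi 2 for 10 of the 10 genes, and the highest was in 9G8 RNAi 3 for 6 and in 9G8 RNAi 4 for 4. The highest control level was in control 2 for 9 of the 10, the exception being CG18107, whose highest was in control 1. The lowest control level was in control 3 for 6 genes and in control 4 for 4. Averaged over the 10 genes, log2 CPM relative to each gene's mean was -1.22, -2.94, -0.12 and -0.70 in 9G8 RNAi, against 0.96, 2.24, 0.72 and 1.07 in controls. The scaling factor of 9G8 RNAi 2 was 1.54, against 0.758 to 1.20 in the other 7 libraries. TPM does not use these factors. In TPM, CG18067 was lowest in 9G8 RNAi 1 (165, against 219 in 9G8 RNAi 2). Among 9G8 RNAi libraries, CG15068 was highest in 9G8 RNAi 1 (1464 TPM). Without both 9G8 RNAi 2 and control 3, the libraries at the bottom of their genotype for most genes, 2 of the 10 passed (IM4 and CG15065). Without both 9G8 RNAi 3 and control 2, a choice made after the values were seen, 1 passed (CG15065).

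**Figure D3:**
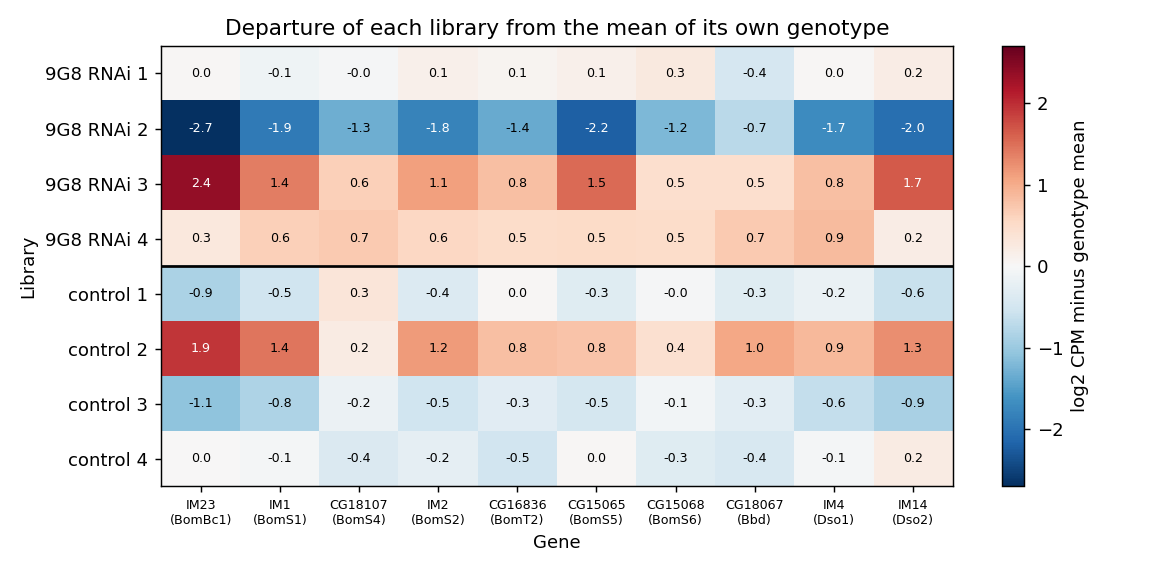
Departure of each library from the mean of its own genotype, as a difference in log2 CPM, for the 10 genes, with the 9G8 RNAi libraries above the controls. Library 9G8 RNAi 2 lies below its genotype mean in 10 of 10 genes, and control 2 lies above its own in 10 of 10.

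Neighbouring genes were examined by position. Of 20 other genes lying between the members or within 10 kb of them, 13 could be tested, 1 was higher in 9G8 RNAi and 0 were lower. The Bomanins IM3, CG15067 and CG43202 were among the 12 that did not pass, with log2 fold changes of -1.93, -1.09 and -2.06. GNBP-like3, near CG18067, had one of -2.50 and did not pass either. The groups of IM3, CG43202, GNBP-like3 and Ipk1 were apart with 9G8 RNAi lower, as were those of 5.78% of all genes tested. Of the 13, only GstE1 and CG30151 (0.05) had positive log2 fold changes. Idgf5, a chitinase-related growth factor gene 3037 bp beyond the Bomanin cluster, had a log2 fold change of -0.30 (adjusted p = 0.921, edgeR's quasi-likelihood test with Benjamini-Hochberg adjustment). GstE1, a glutathione S-transferase gene 7764 bp beyond the cluster, had 669.6, 766, 1322 and 867 CPM in 9G8 RNAi, against 86.1, 92.1, 54.1 and 53.4 CPM in controls. It rose, with a log2 fold change of 3.66 (standard error 0.40, adjusted p = 9.47e-04, same test). The nearest gene to IM14, Ipk1, had a log2 fold change of -0.75 (adjusted p = 0.433), and the nearest tested gene to CG18067, CG30154, had one of -0.24 (adjusted p = 0.940).

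**Figure D4:**
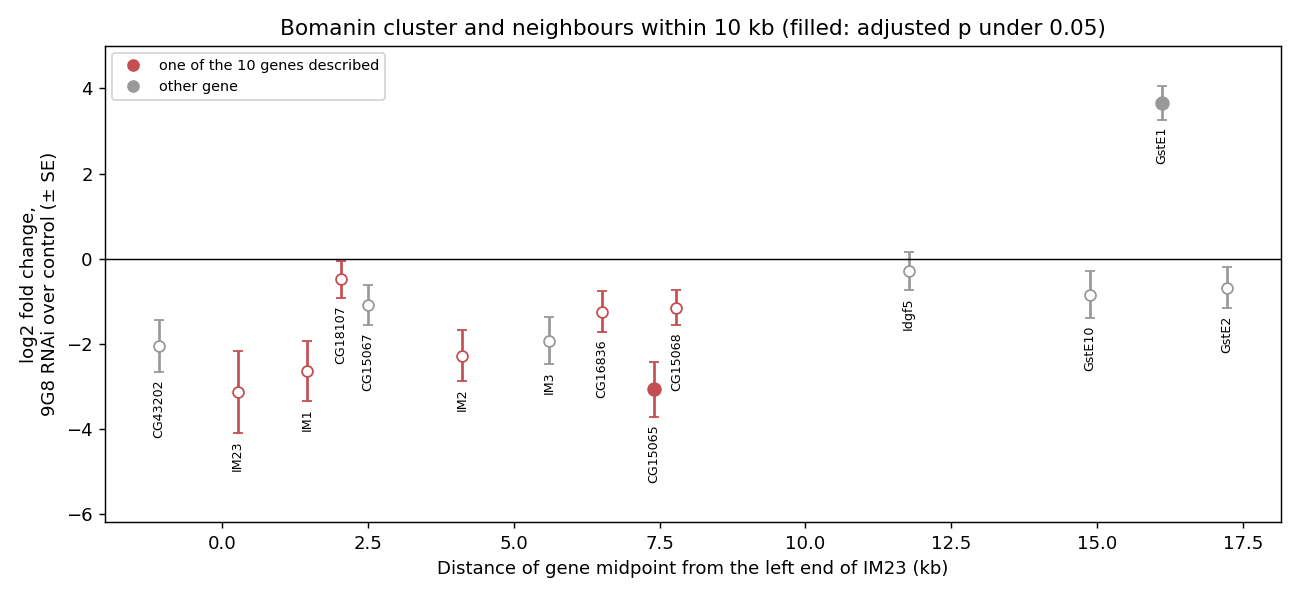
Log2 fold change of 9G8 RNAi over control (± SE, edgeR) for the tested genes of the Bomanin cluster and within 10 kb of it, against distance from the left end of IM23 in kb. Filled symbols passed an adjusted p under 0.05, and these are CG15065 below 0 and GstE1 at 3.66 above 0.

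The other genes of the family and pathway were read from lists. Of the 5 other Bomanins, 0 passed, with negative log2 fold changes in 5 of 5 and a median of -1.93. IM3 (BomS3), a short Bomanin inside the cluster, averaged 1781 ± 1048 CPM in 9G8 RNAi and 6775 ± 3635 CPM in controls (SD, n = 4 each), a log2 fold change of -1.93 (standard error 0.56, adjusted p = 0.102, edgeR's quasi-likelihood test with Benjamini-Hochberg adjustment). CG15067 (BomBc2), a bicipital Bomanin, averaged 1345 ± 629 CPM in 9G8 RNAi and 2872 ± 1302 CPM in controls, with overlapping groups and an adjusted p of 0.319. CG5791 (BomBc3), a bicipital Bomanin on chromosome arm 3R, averaged 137 ± 101 CPM in 9G8 RNAi and 898 ± 622 CPM in controls, a log2 fold change of -2.71 (adjusted p = 0.0575, same test).

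Among 6 other Toll-responsive secreted peptides, 5 were tested, and the median log2 fold change was -3.11. Negative log2 fold changes were found in 5 of 5, against 49.2% of all genes tested. The groups were apart with 9G8 RNAi lower in 4 of 5, against 5.78% of all genes tested. At an adjusted p under 0.05, 2 were lower, against 2.21% of all genes tested, and 0 were higher. The 2 that passed were the Baramicin A genes IM10 and CG33470, precursors of antifungal peptides. IM10 averaged 9.80 ± 7.19 CPM in 9G8 RNAi and 84.4 ± 72.1 CPM in controls (adjusted p = 0.0248, edgeR's quasi-likelihood test with Benjamini-Hochberg adjustment), and CG33470 averaged 4.93 ± 3.69 CPM in 9G8 RNAi and 48.0 ± 35.6 CPM in controls (adjusted p = 0.0204, same test). They are near-identical copies, so the counts of each are uncertain. Both calls were lost in 3 of the 8 fits without 1 library, which left out 9G8 RNAi 1, 9G8 RNAi 2 or control 2, with an adjusted p of up to 0.0772 for IM10 and 0.0734 for CG33470.

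Upstream of the receptor, 13 of 15 genes for recognition and the protease cascade were tested, 1 was lower and 0 higher, with a median log2 fold change of -0.96. Negative log2 fold changes were found in 11 of 13, against 49.2% of all genes tested. The groups were apart with 9G8 RNAi lower in 3 of 13, against 5.78% of all genes tested. The gene that passed was PGRP-SD, a secreted peptidoglycan recognition protein. It had 5.80, 3.60, 49.1 and 8.06 CPM in 9G8 RNAi, against 160.4, 198, 109.7 and 108 CPM in controls, with 9G8 RNAi 3 above its group. Its log2 fold change was -3.12 (adjusted p = 0.0444, edgeR's quasi-likelihood test with Benjamini-Hochberg adjustment), and the call was lost with RLE factors, with a mean CPM of at least 1 and in 6 of the 8 fits without 1 library, up to an adjusted p of 0.106. The PGRP-SD span overlaps CG32373 on the same strand by 721 bp.

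From the receptor to the nucleus, 0 of 14 tested genes passed, with 7 of 14 negative and a median log2 fold change of -0.0011. Cactus (cact), the inhibitor, had a log2 fold change of -0.04, the SUMO-conjugating enzyme lwr one of 0.04 and the arrestin krz one of 0.17. The directions of cact and lwr turned under other settings. Of 13 tested peptides regulated by the Imd pathway, the other main humoral immune pathway, 0 passed, with 5 of 13 negative and a median log2 fold change of 0.28. Defensin (Def) averaged 74.6 ± 132 CPM in 9G8 RNAi and 62.8 ± 68.9 CPM in controls, a log2 fold change of 0.25, and AttC had one of -1.90 and AttA one of 0.92. Without 9G8 RNAi 3, AttC had a log2 fold change of -3.58 and was lower (adjusted p = 0.0309, edgeR's quasi-likelihood test with Benjamini-Hochberg adjustment). Def and AttA were negative without that library too (-2.82 and -1.83), and their directions also turned under other settings. Def had 272 CPM in 9G8 RNAi 3, against 7.81, 1.77 and 17.2 CPM in 9G8 RNAi 1, 2 and 4. The list's median of 0.28 includes 9G8 RNAi 3, and it was not computed without that library. The difference between the Toll effectors and these lists was not tested.

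**Figure D5:**
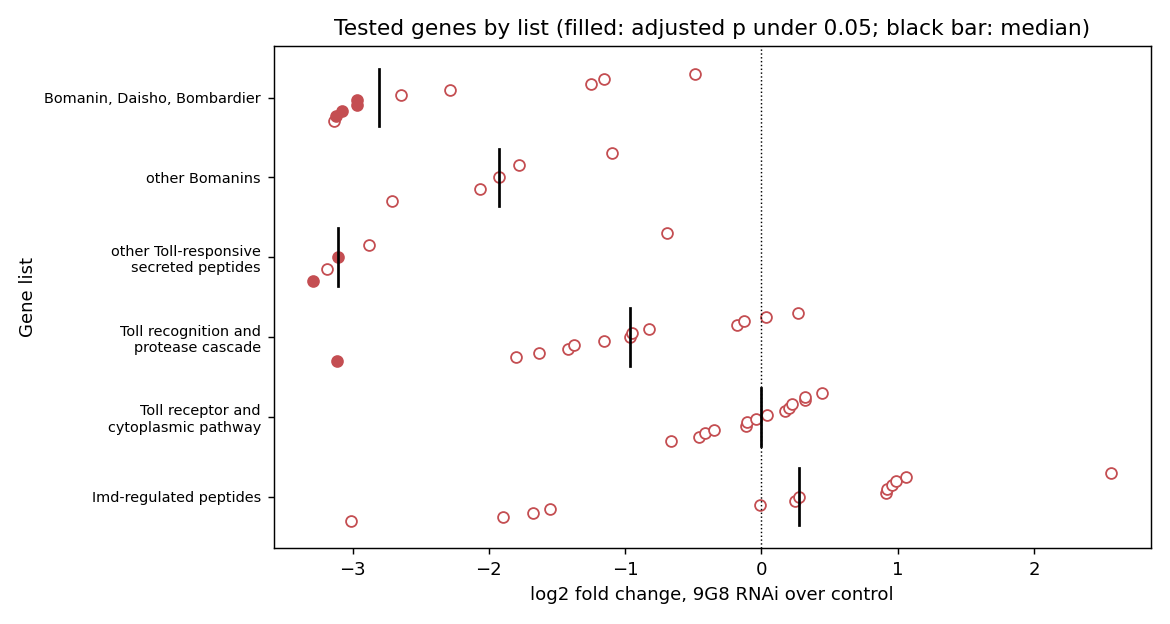
Log2 fold change of 9G8 RNAi over control (edgeR) for each tested gene, by list, with filled symbols for an adjusted p under 0.05 and a black bar at the list's median. The median is -2.81 for the 10 effector genes, -0.0011 for the receptor and cytoplasmic genes and 0.28 for the Imd-regulated peptides. The Imd median includes 9G8 RNAi 3, without which Def and AttA had negative values.

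The genes whose pattern over the 8 libraries was most like the average of the 10 were ranked by the root mean square difference of centred log2 CPM, in which a smaller value is a closer match. Outside the 10, the closest were IM3 (0.268), GNBP-like3 (0.282), CG16978 (0.341), CG4250 (0.376) and CG5791 (0.390). The average was lower in each 9G8 RNAi library than in each control, so genes matched to it were bound to be lower too. The p-values below describe genes already chosen for that pattern. GNBP-like3 lies 7420 bp from CG18067 and had a log2 fold change of -2.50 (adjusted p = 0.0700, edgeR's quasi-likelihood test with Benjamini-Hochberg adjustment). CG16978 had a log2 fold change of -2.67 (adjusted p = 0.0198) and CG4250 one of -2.35 (adjusted p = 0.0177), and both fell. Each call was lost in 3 of the 8 fits without 1 library. For CG16978 the adjusted p was 0.0591 when 9G8 RNAi 1 was left out, 0.0603 for 9G8 RNAi 2 and 0.0537 for control 2. For CG4250 it was 0.0640 without 9G8 RNAi 1, 0.0554 without control 1 and 0.0595 without control 2. Of the 10 themselves, which make up that average, IM2 was closest to it (0.0972), and CG18107 (1.02) and IM23 (0.886) were farthest.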

How the data were processed

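Each deposited file gave whole-number counts per gene for 1 library, laid out as featureCounts writes them per the file headers, and not normalized. The submitters' processing notes name Trimmomatic 0.36, STAR 2.5.2b, featureCounts (Subread 1.5.2) and BDGP6. They do not give the strand setting or how reads with more than 1 match were counted. PolyA-selected RNA was sequenced, per the labels' protocols.

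From the deposited counts, R 4.3.3 and edgeR 4.0.16 were used to filter genes (filterByExpr), scale libraries (TMM) and compare 9G8 RNAi with control by the quasi-likelihood F test over all tested genes. P-values were adjusted by Benjamini-Hochberg, with a threshold of 0.05. CPM (TMM-scaled) and TPM were computed here from the deposited counts. Errors are SD over 4 libraries, and standard errors of log2 fold changes derive from the F statistic. Ratios added 0.5 to each count and were tested by exact permutation over libraries. Likeness used a prior count of 2 and genes with a mean CPM of 1 or more.

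No label says that the libraries came from flies reared apart, so the p-values speak for the spread among these libraries and not necessarily among flies. The members and gene lists were chosen with earlier results of these data known. Named from a list were the genes that passed, or else up to 3 with the highest mean CPM, besides the 5 closest by likeness and genes within 10 kb. The list of other Bomanins was corrected after the files were read, since 1 listed gene was no Bomanin and CG15067 was missing. Newer symbols came from RefSeq gene records. Exons and coding lengths came from Ensembl's annotation of BDGP6, in which the spans of 10 of 10 genes matched the files. The count test was run on simulated data with the same relative spread for every gene and no shifts shared by genes within a library. Those data differ in this from the effector genes, so the run does not vouch for their p-values.

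The alternatives were RLE factors, TMM that skips the 20 most abundant genes, DESeq2 1.42.0, voom (limma 3.58.1), a looser or stricter filter, a block for the replicate number, and libraries left out.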

Additional observations from a re-analysis of the deposited data

Results flagged for a closer look

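A library far from the other 3 of its genotype was looked for in 66 groups of 4 libraries by Dixon's criterion, and 13 stood out. The criterion's rate of about 1 in 20 groups holds for independent, normally distributed values. The groups here were mostly unlogged CPM of genes that vary together over the same 8 libraries, so 13 cannot be set against that rate. Control 2 was high for IM23 (4264 CPM), IM2 (9509.9 CPM) and CG18067 (5038 CPM) among the effector genes. It was also high for IM3 (12179.7 CPM), CG5791 (1829.9 CPM), IM10 (192 CPM), AttA (69.9 CPM) and GNBP-like3 (1984 CPM). 9G8 RNAi 3 was high for PGRP-SD (49.1 CPM) and for the Imd-regulated peptides Def (272 CPM), AttC (72.2 CPM) and AttA (177 CPM). 9G8 RNAi 2 was low for lwr (75.7 CPM).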

How the results depend on the processing

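The 10 effector genes had negative log2 fold changes in all 17 alternative fits, and the share of counts in them was lower in 9G8 RNAi by 0.94 to 1.59 percentage points without any 1 library. The number of genes changed, 316, was 523 with DESeq2, 141 with the replicate block, 96 without 9G8 RNAi 2 and control 3 together, 91 without 9G8 RNAi 3 and control 2 together, and 162 to 504 without 1 library. The number of effector genes that passed, 4, was 6 with DESeq2, 0 with the replicate block, where 8 had an unadjusted p under 0.05 in edgeR, 2 and 1 without these pairs of libraries, and 2 to 5 without 1 library. It was 2 without 9G8 RNAi 1 or without control 2 (IM4 and CG18067). Their median log2 fold change was -3.14 to -1.97 without 1 library. With the replicate block the adjusted p was 0.0623 for CG18067, 0.0665 for IM4, 0.0843 for CG15065 and 0.147 for IM14. No label pairs the numbers, deviations of same-numbered libraries correlated at -0.59 to -0.02, and 0 libraries matched their own number best.

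The log2 fold change of x16 was 0.36 without 9G8 RNAi 2 and control 3, and -1.20 to 0.10 without 1 library. The difference in the IM4 to IM14 log2 ratio was 0.080 without 9G8 RNAi 3 and control 2, and -0.30 to 0.20 without 1 library, with a p of 0.875 in the blocked test. Directions turned for cact (0.033 without the filter, 0.028 with the block, 0.050 with TMM without the 20 most abundant genes), Def (-1.13 with voom, -2.22 with the block, -3.07 without 9G8 RNAi 3 and control 2), AttA (-0.16, -0.80 and -0.68 under the same 3), lwr (-0.037) and Idgf5 (0.10), both without 9G8 RNAi 3 and control 2. Without 1 library the ranges were -0.30 to 0.36 for cact, -2.82 to 1.38 for Def, -1.83 to 2.07 for AttA, -0.061 to 0.21 for lwr, -0.66 to 0.013 for Idgf5 and -0.46 to 0.10 for CG30154. PGRP-SD missed the threshold with RLE factors (adjusted p = 0.0522) and with a mean CPM of at least 1 (0.0514). The causes were not tested.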
